A study of Mus musculus with 23 samples.

Results

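The data described here are the transcript levels of 10 integrin subunits, Itgb1, Itga2, Itga3, Itga5, Itga6, Itgav, Itgb4, Itgb5, Itgb6 and Itgb8, in mouse pancreatic ductal adenocarcinoma (PDAC) cells and organoids. The subunits were taken by symbol as 10 of the 27207 genes in the count table, and the rule that takes them uses no measured value. The study profiled 23 bulk RNA libraries in 6 groups. All came from primary tumour cells kept in DMEM with fetal bovine serum. KC cells, from a mouse with the Ptf1a Cre/+ driver, were profiled as a flat 2D culture (n = 6), as organoids in Matrigel at day 13 (n = 3), and as organoids in floating collagen I gels at day 7 (n = 3) and at day 13 (n = 5 in batch 1 and n = 3 in batch 2). KPC cells, from a mouse with the Pdx1 Cre/+ driver, were profiled as organoids in collagen at day 13 (n = 3, batch 2).

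The labels give 1 mouse for all KC libraries, in both batches, and 1 other mouse for all KPC libraries, so the genotype cannot be told apart from the mouse or from its Cre driver. Nothing in the labels says that libraries of a group came from separate mice. Each p-value rests on the spread between libraries within groups, pooled over the 6 groups in 1 fit, and not on a spread between mice. Organoids were freed from their gel with collagenase before lysis and 2D cells were lysed in the dish, so culture form and digestion cannot be told apart. Collagen gels were detached to float, while Matrigel was seeded in domes or gels. The paper describes branched organoids in collagen and spheroids or cysts in Matrigel. Matrix, gel format and organoid shape therefore cannot be told apart. The batch names are those of the labels. Matrigel, day 7 and 2D libraries were all of batch 1 and KPC libraries all of batch 2. A reference of KC day 13 collagen libraries from both batches therefore sets each of these groups partly against the other batch. In bulk RNA, fewer cells of a type and less RNA per cell cannot be told apart.

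Integrins are heterodimers of an alpha and a beta subunit that span the plasma membrane, bind matrix proteins outside the cell and join them to the actin or keratin cytoskeleton inside it. The alpha subunit largely sets the ligand. In epithelia the alpha2-beta1 pair is the main receptor for collagen I, alpha3-beta1 and alpha6-beta1 bind laminins, and alpha6-beta4 anchors hemidesmosomes to laminin-332. Of the 10 subunits, Itgb1, Itga2, Itga3, Itga6 and Itgb4 form these collagen and laminin receptors. The other 5 do not: alpha5-beta1 is the classical fibronectin receptor, and alphav pairs with beta5, beta6 or beta8 to bind vitronectin, fibronectin or the latent form of TGF-beta. Collagen gels offer collagen I, whereas Matrigel is a basement membrane extract rich in laminin and collagen IV. A group name that speaks of collagen and laminin therefore fits 5 of the 10.

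Of the 10 subunits, 8 matched the RefSeq table of start sites (GRCm38.p6), all but Itga6 and Itgb4. The sequence before the start is shown for 4 of them, chosen after their values were seen: Itga2 and Itgb6, which differed between the gels, Itga3, which was highest at day 7, and Itgb1, the partner of alpha2 and alpha3. Each run is the 250 bases before the RefSeq start site nearest the 5′ end of the gene, 5′ to 3′ on the gene's strand. Capitals mark matches, on either strand, to TGANTCA (AP-1), GGAATG (TEAD) or GGGCGG (the GC box bound by SP factors), none of which overlap here.
Itgb1, chr8:128685404-128685653, plus strand: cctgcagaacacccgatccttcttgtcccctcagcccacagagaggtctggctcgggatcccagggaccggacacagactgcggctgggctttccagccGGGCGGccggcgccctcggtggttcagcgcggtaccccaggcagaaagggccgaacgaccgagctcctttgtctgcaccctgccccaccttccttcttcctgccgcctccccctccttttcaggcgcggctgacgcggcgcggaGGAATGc
Itga2, chr13:114932101-114932350, minus strand: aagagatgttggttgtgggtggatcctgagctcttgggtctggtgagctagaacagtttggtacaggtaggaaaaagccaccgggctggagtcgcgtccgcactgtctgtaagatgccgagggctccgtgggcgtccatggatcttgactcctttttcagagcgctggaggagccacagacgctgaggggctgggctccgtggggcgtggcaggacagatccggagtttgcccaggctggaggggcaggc
Itga3, chr11:95076715-95076964, minus strand: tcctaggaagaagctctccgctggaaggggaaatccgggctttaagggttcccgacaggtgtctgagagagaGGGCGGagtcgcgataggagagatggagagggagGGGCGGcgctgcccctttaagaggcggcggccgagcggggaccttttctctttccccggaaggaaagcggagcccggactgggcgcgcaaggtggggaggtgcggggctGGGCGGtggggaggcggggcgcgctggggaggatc
Itgb6, chr2:60722604-60722853, minus strand: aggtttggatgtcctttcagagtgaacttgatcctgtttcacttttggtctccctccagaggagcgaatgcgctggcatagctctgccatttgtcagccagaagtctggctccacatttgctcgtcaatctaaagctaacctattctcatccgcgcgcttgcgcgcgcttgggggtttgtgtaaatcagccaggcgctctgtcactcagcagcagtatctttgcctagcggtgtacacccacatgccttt
Itgb1 held 1 GC box and 1 TEAD match and Itga3 held 3 GC boxes, while Itga2 and Itgb6 held no match to any of these motifs. Over the 32851 upstream windows of the same length in the table, 32.7% held the GC box, 12.6% the TEAD motif and 6.75% the AP-1 motif. These are matches of letters, not binding sites.

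The libraries held 1221451 to 2471058 UMI counts each. Levels are given as CPM, the counts of a gene relative to the total of its library, scaled with TMM factors, and 3 counts, the most that a count of 0 allows, amount to 1.16 to 3.22 CPM. Ductal keratins were abundant in every library: the summed level of 7 ductal markers (Krt7, Krt8, Krt18, Krt19, Epcam, Cdh1, Sox9) was 7161 to 13992 CPM. The sum does not speak for each marker, as Epcam ran from 4.65 to 190.9 CPM. The 4 endothelial markers never passed 3 counts. Of 6 fibroblast markers, 4 passed 3 counts in some library and their sum stayed between 12.7 and 84.8 CPM, with Thy1 at 0 throughout. Of 4 leukocyte markers in the table only Cd68, a lysosomal protein, passed 3 counts, and of 4 acinar markers only Cela1 was in the table, at 2.98 to 20.4 CPM.

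2D replicates 1 to 3 stood apart from the other libraries. They held 1221451 to 1382736 counts, 21.4% to 22.3% of them from ribosomal protein genes against 11.6% to 12.7% in 2D replicates 4 to 6. Long genes also read lower in them. The median log2 deviation of genes in the longest of 20 classes of exon length, minus that in the shortest, was -1.67 to -1.46 in replicates 1 to 3, -0.44 to -0.23 in replicates 4 to 6, -0.50 to 0.40 in the batch 1 organoids and 0.67 to 0.93 in batch 2. The 10 subunits have 3553 to 11060 bases of exon sequence, so values with this trend removed, or without 2D replicates 1 to 3, are given below where they change a call and for some results that they do not change. The gene lists other than the 10 subunits were not refitted in these ways.

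**Figure D1:**
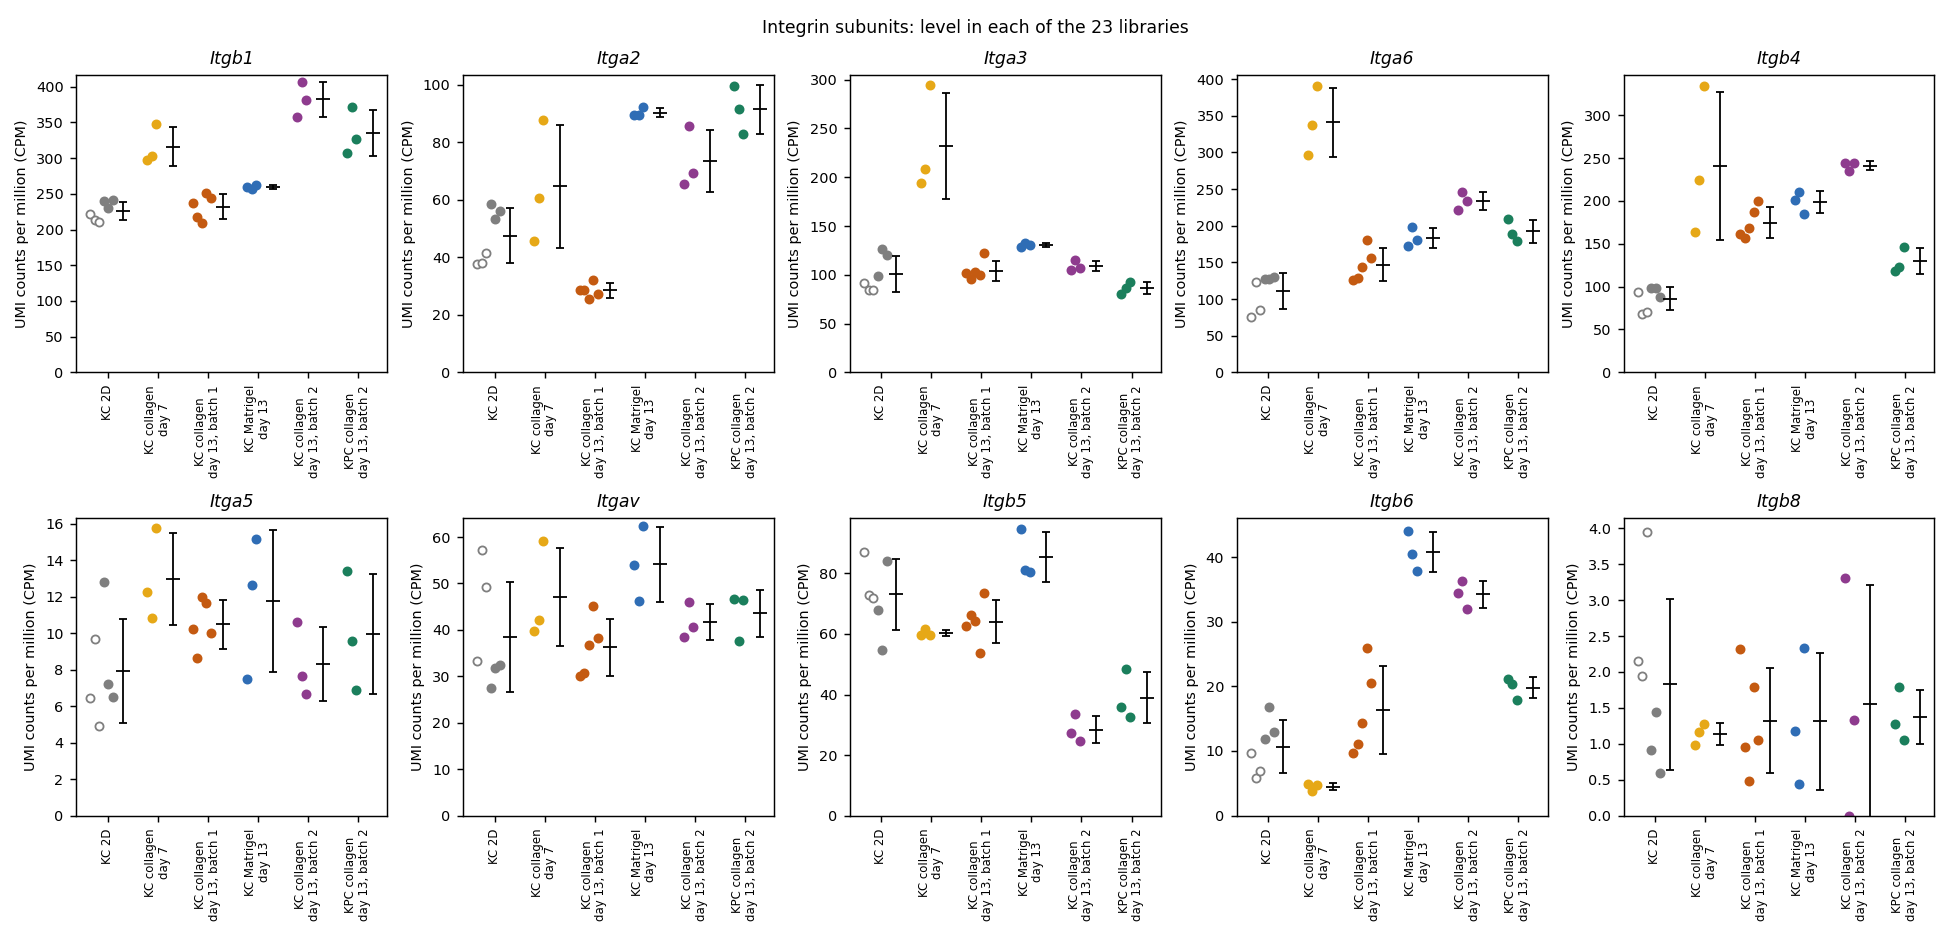
Level of each integrin subunit in CPM (vertical axis, starting at 0, a different range in each panel) in the 6 groups. Points are libraries, open points 2D replicates 1 to 3, and the bars give the mean ± SD of the group. Itga3 and Itga6 peaked at day 7 in collagen, Itgb6 was lowest there and highest in Matrigel, and Itgb8 stayed under 4 CPM in all 23 libraries.

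Of the 10 subunits, 9 passed the low-count filter and were tested among 11144 genes with edgeR at an adjusted p under 0.1. Itgb8, with 0 to 5 counts in each library, did not pass. Against collagen at day 13, Matrigel organoids had 4 subunits higher (Itga2, Itgb6, Itgav, Itgb5) and 0 lower, where 6.62% of all tested genes were higher and 6.29% lower. The median log2 fold change was 0.32 over the 9 subunits and -0.01 over all genes. Day 7 organoids had 5 higher than day 13 (Itga6, Itga2, Itga3, Itgb4, Itgb1) and 1 lower (Itgb6), with 28.1% of genes higher and 27.1% lower and a median of 0.45 against 0.01. KPC organoids had 0 higher and 2 lower than KC organoids of the same batch (Itgb4, Itgb6), where 9.58% of genes were higher and 10.4% lower. The medians were -0.19 and 0.01.

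In 2D cells 1 subunit was higher than in day 7 organoids (Itgb6) and 6 were lower (Itga6, Itgb4, Itga3, Itga5, Itgb1, Itga2), with 26.4% of genes higher and 24.8% lower. The median log2 fold change was -0.48 over the subunits and 0.02 over all genes. Against day 13, 1 was higher in 2D (Itga2) and 3 were lower (Itgb4, Itgb6, Itga6), with 26.3% of genes higher and 23.3% lower and medians of -0.03 and 0.01. KC organoids of the same mouse and day differed between batches by 5 subunits higher in batch 2 (Itga2, Itgb6, Itgb1, Itga6, Itgb4) and 1 lower (Itgb5), with 19.3% of genes higher, 18.1% lower and medians of 0.47 and -0.05. The comparisons of Matrigel, day 7, 2D and batch 2 with batch 1 organoids of day 13 share those 5 libraries.

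**Figure D2:**
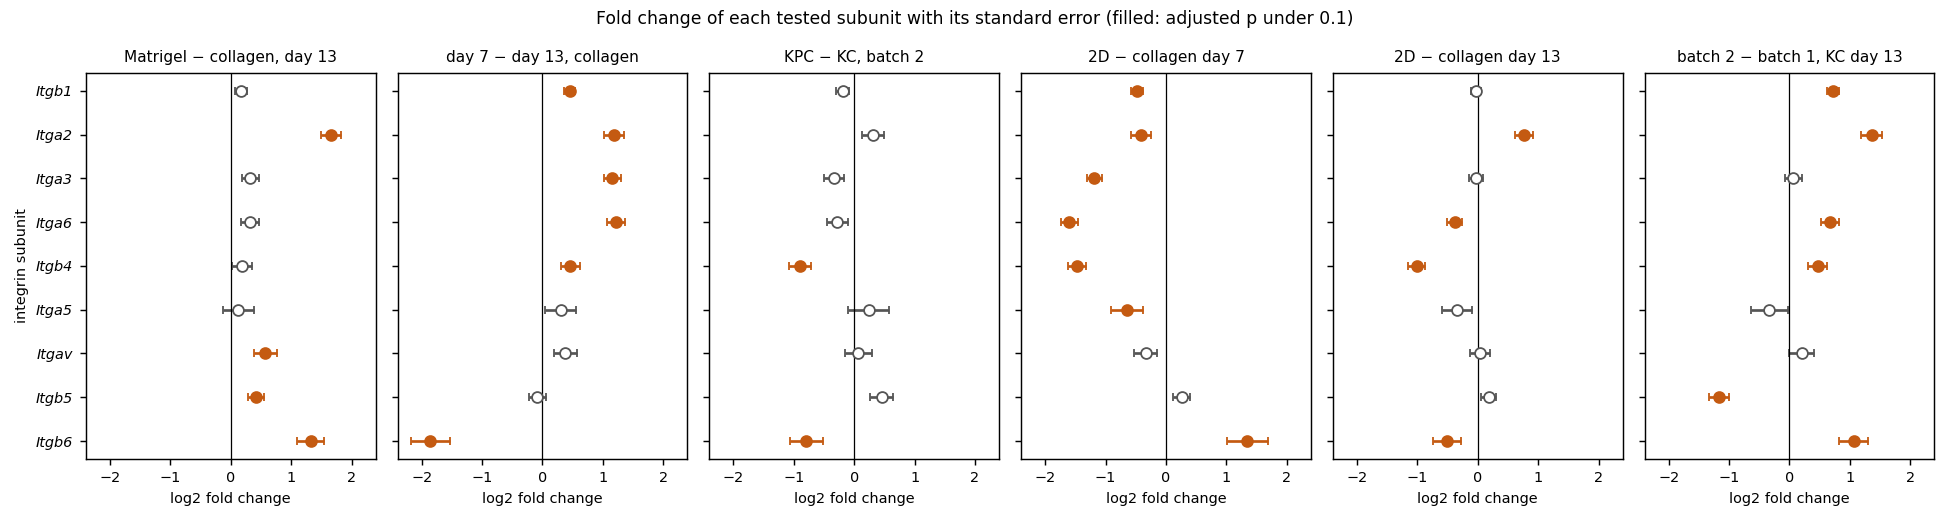
Log2 fold change (horizontal axis, in the direction each panel names) of the 9 tested subunits, with the standard error as a bar, and filled points at an edgeR adjusted p under 0.1. Itgb6 passed the test in all 6 comparisons. Its lowest value, -1.86 at day 7 against day 13, and its highest, 1.35 in 2D against day 7, both involve day 7, where its level was lowest.

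Itga2 (chr13:114833081-114932100, minus strand, GRCm38) encodes alpha2, the subunit that makes a beta1 integrin a collagen I receptor. In KC collagen organoids of batch 1 at day 13 it stood at 28.7, 28.8, 25.4, 32.2 and 27.3 CPM, and in Matrigel at the same day at 89.3, 89.4 and 92.1 CPM. The libraries of the gels did not overlap, and the higher level was in Matrigel, not in collagen. The difference was 3.16-fold (log2 fold change 1.66 ± 0.17 SE, edgeR adjusted p = 1.2e-07). The KC collagen libraries of batch 2, however, stood at 65.6, 85.8 and 69.3 CPM, 2.57-fold above batch 1 (1.36 ± 0.18, edgeR adjusted p = 2.3e-06). Every Matrigel library remained above every one of these 8 collagen libraries. With all 8 as the reference the Matrigel difference was 1.02 ± 0.28 (edgeR adjusted p = 0.023).

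At day 7 in collagen Itga2 held 45.6, 60.4 and 87.8 CPM, the largest SD of the 6 groups. All 3 libraries were above the 5 of batch 1 at day 13, a 2.27-fold difference (1.18 ± 0.17, edgeR adjusted p = 2.8e-06). Against the 8 day 13 libraries of both batches it was 0.54 ± 0.29 and did not pass the test (edgeR adjusted p = 0.13), so the call depended on which batch stood for day 13. KPC organoids held 99.6, 91.6 and 82.9 CPM and overlapped the KC libraries of their batch (0.31 ± 0.19, edgeR adjusted p = 0.3). Against the 8 KC libraries of both batches the difference was 1.04 ± 0.29 and passed (edgeR adjusted p = 0.012). That reference adds batch 1, which held no KPC library and where KC Itga2 was lower (1.36 ± 0.18 for batch 2 against batch 1). Genotype and batch cannot be told apart in it.

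In 2D cells Itga2 had a lowest, median and highest value of 37.6, 47.3 and 58.4 CPM. All 6 lay above the batch 1 organoids of day 13 (0.77 ± 0.15, edgeR adjusted p = 3.2e-04). The difference was 0.94 ± 0.15 without 2D replicates 1 to 3, but 0.12 ± 0.25 against both batches (edgeR adjusted p = 0.71). They overlapped day 7, where the called difference of -0.41 ± 0.16 (edgeR adjusted p = 0.042) was -0.19 ± 0.15 without 2D replicates 1 to 3 (edgeR adjusted p = 0.35), -0.22 ± 0.14 with the length trend removed (edgeR adjusted p = 0.22) and -0.15 without day 7 replicate 3.

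Itgb1 (chr8:128685654-128733200, plus strand) encodes beta1, the partner that alpha2, alpha3 and alpha5 need and that alpha6 and alphav can use. It ran from 209 to 407 CPM over the 23 libraries, and its group means differed by at most 1.69-fold. Matrigel organoids held 259.7, 257 and 263 CPM and batch 1 collagen organoids 237, 218, 209, 251 and 244 CPM. These did not overlap, but the difference of 0.16 ± 0.10 did not pass the test (edgeR adjusted p = 0.37). Between the gels Itga2 was thus called and its partner was not, and the difference between their fold changes was not tested.

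Day 7 libraries held 298, 303 and 348 CPM of Itgb1, 1.36-fold above day 13 of batch 1 (0.45 ± 0.10, edgeR adjusted p = 5.3e-04). Batch 2 stood at 358, 407 and 382 CPM in KC and 308, 371 and 326 CPM in KPC. The KC batches did not overlap (0.72 ± 0.10, edgeR adjusted p = 4.8e-06), and against both together day 7 differed by 0.14 ± 0.17 (edgeR adjusted p = 0.52). The genotypes overlapped (-0.19 ± 0.11, edgeR adjusted p = 0.29). In 2D cells Itgb1 had a lowest, median and highest value of 211, 226 and 241 CPM. These lay below every day 7 library (-0.48 ± 0.10, edgeR adjusted p = 2.8e-04) and overlapped day 13 of batch 1 (-0.033 ± 0.084, edgeR adjusted p = 0.78). Against both batches at day 13 the 2D cells were lower in Itgb1 (-0.35 ± 0.14, edgeR adjusted p = 0.038). That reference includes batch 2, where KC Itgb1 was higher, while the 2D libraries were all of batch 1.

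Itga3 (chr11:95044474-95076801, minus strand) encodes alpha3, which with beta1 binds laminins of the basement membrane. The day 7 libraries held 194, 208 and 295 CPM, above every one of the others. Day 13 collagen organoids held 102, 95.4, 102, 99.4 and 122 CPM in batch 1 and 105, 115 and 107 CPM in batch 2, and these overlapped (0.065 ± 0.14, edgeR adjusted p = 0.78). Day 7 was 2.23-fold above batch 1 (1.16 ± 0.14, edgeR adjusted p = 1.2e-07) and 1.13 ± 0.13 above both batches together (edgeR adjusted p = 9.8e-08). The day 7 call for Itga3, unlike those for Itga2 and Itgb1, passed with either reference.

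The Matrigel libraries held 128, 133 and 131 CPM of Itga3, above every batch 1 collagen library but with a difference of 0.32 ± 0.14 that did not pass (edgeR adjusted p = 0.17). It passed with the length trend removed (0.32 ± 0.12, edgeR adjusted p = 0.098), in a fit of the compared groups alone (0.35 ± 0.10, edgeR adjusted p = 0.027) and without collagen replicate 5, the highest of its group (0.40). KPC libraries, at 79.8, 86.8 and 92.9 CPM, lay below all 3 KC libraries of batch 2, also short of the threshold (-0.33 ± 0.16, edgeR adjusted p = 0.2). In 2D cells the lowest, median and highest values were 84.4, 94.96 and 127 CPM, 2.27-fold below day 7 (-1.18 ± 0.13, edgeR adjusted p = 1.4e-07). Without 2D replicates 1 to 3 this was -0.99 ± 0.12. The 2D cells overlapped day 13 of batch 1, and the sign of that difference depended on the libraries used, -0.028 ± 0.12 with all and 0.11 ± 0.12 without 2D replicates 1 to 3, neither past the threshold.

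Itga6 (chr2:71745616-71858416, plus strand) encodes alpha6, which binds laminin with beta1, or with beta4 in hemidesmosomes. Like Itga3 it was highest at day 7, at 296, 337 and 390.5 CPM, above all other libraries. Batch 1 held 126, 129, 144, 180.03 and 156 CPM at day 13 and batch 2 held 222, 246 and 233 CPM. Day 7 was 2.32-fold above batch 1 (1.22 ± 0.15, edgeR adjusted p = 2.0e-07) and 0.93 ± 0.18 above both batches (edgeR adjusted p = 1.7e-04). The KC batches did not overlap (0.67 ± 0.15, edgeR adjusted p = 0.0014), and with the length trend removed they differed by 0.42 ± 0.12.

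Matrigel organoids held 172, 199 and 180.1 CPM of Itga6 and overlapped collagen of batch 1 (0.32 ± 0.15, edgeR adjusted p = 0.21), a difference that passed in the fit of the compared groups alone (0.35 ± 0.12, edgeR adjusted p = 0.055). KPC organoids held 209.5, 189 and 179 CPM, below the KC libraries of batch 2 without passing the test (-0.28 ± 0.17, edgeR adjusted p = 0.31). In 2D cells, the group with the lowest mean, the lowest, median and highest values were 75.2, 125 and 130.1 CPM. They were 3.03-fold below day 7 (-1.599 ± 0.14, edgeR adjusted p = 4.2e-09), or -1.39 ± 0.12 without 2D replicates 1 to 3. They overlapped day 13, and the called difference of -0.38 ± 0.13 (edgeR adjusted p = 0.02) was -0.20 ± 0.10 with the length trend removed and -0.23 ± 0.11 without 2D replicates 1 to 3, neither past the threshold (edgeR adjusted p = 0.12 and 0.11).

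Itgb4 (chr11:115974709-116008412, plus strand) encodes beta4, which pairs with alpha6 alone and links laminin to keratin filaments through plectin. Its exons overlap those of a gene on the other strand, B230344G16Rik. KC organoids of batch 2 held 244, 235 and 245 CPM and KPC organoids 119, 123 and 147 CPM, which did not overlap. KPC was 1.86-fold lower (-0.90 ± 0.18, edgeR adjusted p = 0.0011). The KPC libraries also lay below all 5 KC libraries of batch 1, which held 161, 157, 169, 187 and 199.6 CPM, and the difference from the 8 KC libraries was -0.62 ± 0.19 (edgeR adjusted p = 0.02). The KC batches themselves differed by 0.47 ± 0.16 (edgeR adjusted p = 0.029), a call that was lost with the length trend removed (0.31 ± 0.14, edgeR adjusted p = 0.103).

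Itgb4 in Matrigel stood at 201, 210.1 and 185 CPM, overlapping batch 1 collagen (0.19 ± 0.16, edgeR adjusted p = 0.57). The day 7 libraries spread over 164, 224 and 334 CPM. The called difference from day 13 (0.46 ± 0.16, edgeR adjusted p = 0.017) was 0.15 without day 7 replicate 3 and 0.27 ± 0.17 against both batches (edgeR adjusted p = 0.2), both short of the threshold. In 2D cells the lowest, median and highest values of Itgb4 were 67.9, 90.6 and 98.9 CPM, below every organoid library. The difference was 2.78-fold from day 7 (-1.47 ± 0.15, edgeR adjusted p = 5.7e-08) and 2.01-fold from day 13 (-1.01 ± 0.14, edgeR adjusted p = 3.2e-06). Without 2D replicates 1 to 3 and with the length trend removed, these were -1.24 ± 0.14 and -0.83 ± 0.13, both past the threshold.

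Itga5 (chr15:103344286-103366763, minus strand) encodes alpha5, the fibronectin receptor subunit. It had few reads, 5 to 37 counts a library and 4.93 to 15.8 CPM. The group means ran from 7.92 CPM in 2D cells to 12.96 CPM at day 7, and each group overlapped the next in that order. It passed the test once, lower in 2D than at day 7 (-0.64 ± 0.26, edgeR adjusted p = 0.051), and not without 2D replicates 1 to 3 (-0.50 ± 0.29, edgeR adjusted p = 0.18) or without day 7 replicate 3 (-0.50). The difference was 0.13 ± 0.26 between gels and 0.24 ± 0.34 between genotypes (edgeR adjusted p = 0.85 and 0.73).

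Itgav (chr2:83724397-83806916, plus strand) encodes alphav, which binds the RGD motif in vitronectin, fibronectin and the TGF-beta propeptide. Its exons overlap those of Gm13684 on the other strand, and whether the counting used strand is not given in the sources used here. Matrigel organoids held 53.9, 46.2 and 62.4 CPM and batch 1 collagen organoids 30.1, 30.7, 36.8, 45.2 and 38.4 CPM, which did not overlap. The difference was 1.49-fold (0.57 ± 0.19, edgeR adjusted p = 0.056), but 0.47 ± 0.19 with the length trend removed (edgeR adjusted p = 0.13). It was 0.56 without Matrigel replicate 1, 0.46 without replicate 3, 0.51 without collagen replicate 1 and 0.52 without collagen replicate 2, past the threshold in none of these.

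Over all 23 libraries Itgav ran from 27.4 to 62.4 CPM, and neighbouring groups in the order of means overlapped throughout. Day 7 libraries held 39.7, 42.2 and 59.3 CPM (0.38 ± 0.19, edgeR adjusted p = 0.102 against day 13). KC and KPC organoids of batch 2 held 38.4, 46.02 and 40.6 CPM and 46.6, 37.7 and 46.5 CPM (0.066 ± 0.23, edgeR adjusted p = 0.9). In 2D cells replicates 2 and 3 were the highest, and the 6 values in order of replicate were 33.3, 57.2, 49.3, 27.4, 31.7 and 32.4 CPM. Without replicates 1 to 3 Itgav was lower in 2D than at day 7 (-0.61 ± 0.17, edgeR adjusted p = 0.0047), where all 6 libraries gave -0.34 ± 0.19 (edgeR adjusted p = 0.15).

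Itgb5 (chr16:33829665-33949338, plus strand) encodes beta5, a partner of alphav for vitronectin. KC collagen organoids of day 13 held 62.6, 66.2, 64.1, 53.7 and 73.6 CPM in batch 1 and 27.1, 33.5 and 24.7 CPM in batch 2. The batches did not overlap, and batch 2 was 2.25-fold lower (-1.17 ± 0.17, edgeR adjusted p = 7.6e-06), or -0.996 ± 0.17 with the length trend removed. Itgb5 was the single subunit called lower in batch 2. KPC organoids of batch 2, at 35.8, 48.5 and 32.7 CPM, were also below every library of batch 1, and overlapped KC of their own batch (0.45 ± 0.19, edgeR adjusted p = 0.11).

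Within batch 1, Matrigel organoids held 94.8, 81.1 and 80.4 CPM of Itgb5, above every collagen library of day 13 (0.42 ± 0.14, edgeR adjusted p = 0.057). Without Matrigel replicate 1 the difference was 0.33 and without collagen replicate 4 it was 0.37, neither past the threshold. Day 7, at 59.8, 61.6 and 59.7 CPM, lay within the range of day 13 (-0.083 ± 0.14, edgeR adjusted p = 0.66). The 2D values had a lowest, median and highest of 54.7, 72.4 and 86.99 CPM and overlapped both days, with differences of 0.26 ± 0.14 and 0.18 ± 0.12 (edgeR adjusted p = 0.13 and 0.24). Against both batches at day 13 Itgb5 was higher in 2D (0.50 ± 0.20, edgeR adjusted p = 0.036). That reference includes batch 2, where KC Itgb5 was lower, while the 2D libraries were all of batch 1. Without 2D replicates 4 to 6 Itgb5 was higher in 2D than at either day (0.36 ± 0.15 and 0.29 ± 0.14).

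Itgb6 (chr2:60598292-60722643, minus strand) encodes beta6, an epithelial partner of alphav that activates latent TGF-beta. Its group means spanned 9.096-fold. Matrigel organoids held 44.1, 40.5 and 37.9 CPM, above every other library. Batch 1 collagen organoids of day 13 held 9.74, 11.03, 14.4, 25.98 and 20.5 CPM and those of batch 2 held 34.4, 36.3 and 31.99 CPM. The gels differed 2.503-fold within batch 1 (1.32 ± 0.22, edgeR adjusted p = 2.3e-04) and by 0.86 ± 0.28 with both batches (edgeR adjusted p = 0.054). The KC batches differed 2.09-fold with no overlap (1.06 ± 0.24, edgeR adjusted p = 0.0014). Collagen replicates 4 and 5 of batch 1, which had most Itgb6 in that group, also had its highest mitochondrial shares, 4.83% and 4.44%. With the length trend removed the gels differed by 1.27 ± 0.20, and the part of the mitochondrial share was not tested.

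Day 7 organoids held 4.903, 3.87 and 4.69 CPM of Itgb6, below every library of the other groups. The difference from batch 1 at day 13 was 3.62-fold (-1.86 ± 0.32, edgeR adjusted p = 3.2e-05), or -2.31 ± 0.39 against both batches. Itgb6 was thus lowest at the day on which Itga3 and Itga6 were highest. KPC organoids held 21.1, 20.3 and 17.9 CPM and did not overlap KC of their batch (-0.79 ± 0.27, edgeR adjusted p = 0.051). That difference did not pass without KC replicate 1 (-0.79), KC replicate 2 (-0.76), KPC replicate 2 (-0.82) or KPC replicate 3 (-0.73). Against both KC batches the KPC difference was -0.19 ± 0.32 (edgeR adjusted p = 0.73). That reference adds batch 1, where KC Itgb6 was lower and which held no KPC library, so it mixes genotype with batch.

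The lowest, median and highest 2D values of Itgb6 were 5.82, 10.8 and 16.8 CPM. They lay above day 7 (1.35 ± 0.34, edgeR adjusted p = 0.0024), with 1.65 ± 0.33 without 2D replicates 1 to 3 and 0.73 ± 0.45 without replicates 4 to 6, the latter short of the threshold. They overlapped day 13, and the call there (-0.51 ± 0.24, edgeR adjusted p = 0.086) was lost with the length trend removed (-0.38 ± 0.22, edgeR adjusted p = 0.18), without 2D replicates 1 to 3 (-0.26 ± 0.24, edgeR adjusted p = 0.43) and, among others, without collagen replicate 4 (-0.28). Cd68, the single leukocyte marker tested, moved beside Itgb6. Its log2 fold change was 1.02 in Matrigel, -1.80 at day 7, -1.32 in KPC, 0.97 and -0.83 in 2D against day 7 and day 13, all called, and 0.22 in batch 2, not called. The summed leukocyte markers were 30.7 to 36.6 CPM in Matrigel, 3.41 to 5.88 CPM at day 7, 12.1 to 22.1 CPM in batch 1 at day 13, 18.7 to 21.2 CPM in KC and 5.99 to 11.6 CPM in KPC of batch 2, and 4.57 to 18.3 CPM in 2D. The leukocyte markers Ptprc, Csf1r and Lyz2 were at 3 counts or fewer in every library, and the part of Cd68-positive cells in the Itgb6 result was not tested.

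Itgb8 (chr12:119158022-119238802, minus strand) encodes beta8, another alphav partner that binds latent TGF-beta. It had 0 to 5 counts a library and at most 3.94 CPM. Neighbouring groups overlapped in the order of their means, from 1.14 CPM at day 7 to 1.83 CPM in 2D cells. A difference between groups was not detectable at this depth.

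**Figure D3:**
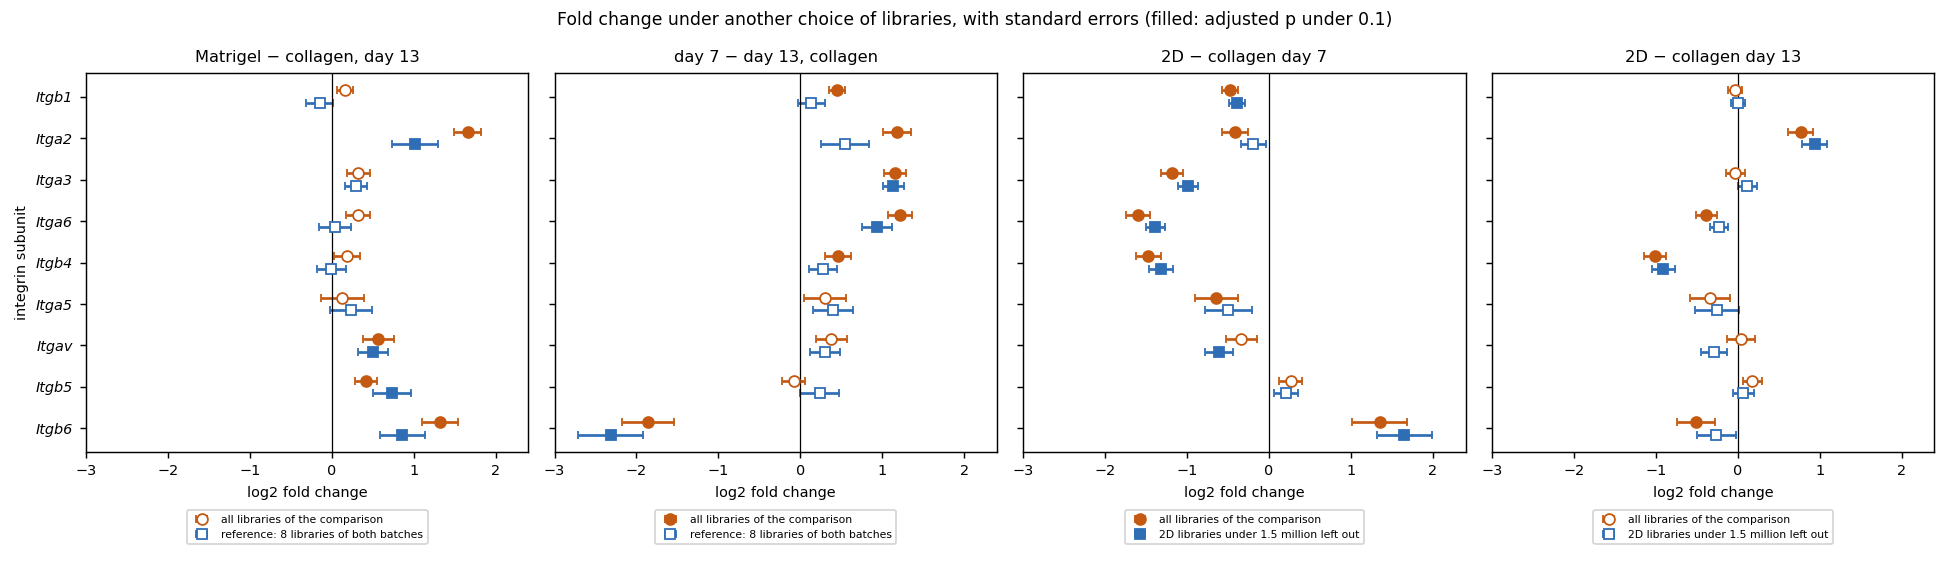
Log2 fold change with its standard error for the 9 tested subunits, with all libraries of the comparison (circles) and under another choice of libraries (squares). The left panels use the 8 KC collagen libraries of day 13 from both batches as the reference, and the right panels leave out 2D replicates 1 to 3. Filled symbols have an edgeR adjusted p under 0.1. At day 7 Itga2, Itgb1 and Itgb4 lost their fill with both batches, whereas Itga3, Itga6 and Itgb6 kept it.

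Because partners are counted in the same library, the ratio of their counts is free of the scaling between libraries. It is a ratio of counts and not per length, so it is read between groups alone. The length trend does not cancel in it where partners differ in exon length. Itga2 has 7133 bases and Itgb1 4081, Itgb4 7015 and Itga6 9025, and Itgb6 7111 and Itgav 10744. Ratios compared across 2D, batch 1 and batch 2 can carry that trend, which was not removed from them. Itga2 over Itgb1 was 0.344 to 0.3503 in Matrigel, 0.112 to 0.132 in batch 1 collagen of day 13, 0.153 to 0.252 at day 7, 0.182 to 0.211 in KC and 0.247 to 0.324 in KPC of batch 2, and 0.1699 to 0.243 in 2D. Every Matrigel library held more Itga2 for its Itgb1 than any other library. Itgb4 over Itga6 was 0.553 to 0.856 at day 7 and 1.04 to 1.28 at day 13 in batch 1. It was 0.955 to 1.101 in KC and 0.567 to 0.8201 in KPC of batch 2, 1.03 to 1.17 in Matrigel and 0.551 to 1.24 in 2D. The ratio was lower, with no overlap, at day 7 than at day 13 and in KPC than in KC. Itgb6 over Itgav was 0.0791 to 0.123 at day 7, 0.323 to 0.574 at day 13 in batch 1, 0.607 to 0.877 in Matrigel, 0.787 to 0.897 in KC and 0.386 to 0.5397 in KPC of batch 2, and 0.102 to 0.5303 in 2D. These ratios are descriptions and were not tested.

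**Figure D4:**
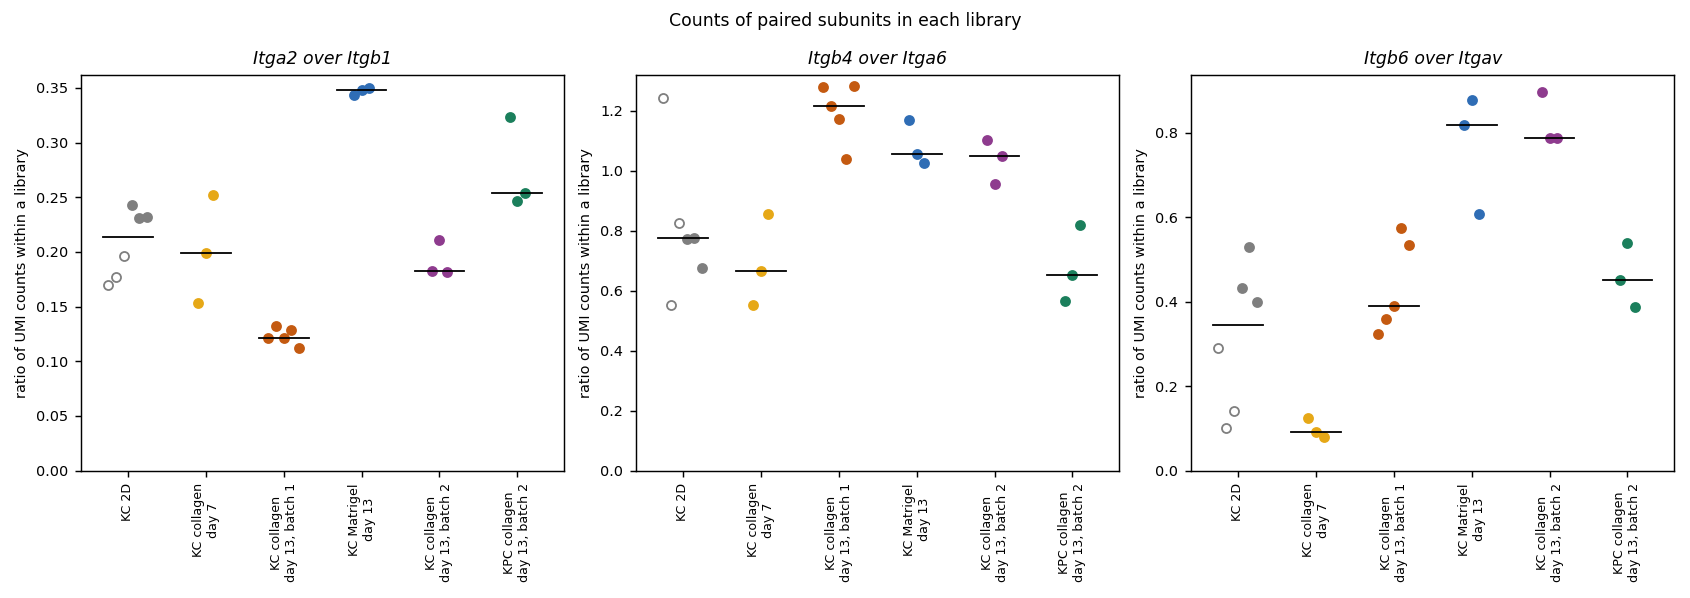
Ratio of the UMI counts of an integrin subunit to those of a partner in each library (vertical axis, no unit) in the 6 groups. Open points are 2D replicates 1 to 3 and the line is the group median. Itga2 over Itgb1 was highest in Matrigel, at 0.344 to 0.3503, and Itgb4 over Itga6 was no higher than 0.856 at day 7 and in KPC.

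Over the 23 libraries the Pearson correlation of log2 CPM was 0.70 between Itga3 and Itga6, 0.77 between Itga6 and Itgb4, 0.76 between Itgb1 and Itga6 and -0.75 between Itgb1 and Itgb5. Over the 11 organoid libraries of batch 1 alone it was 0.96 for Itga3 with Itga6, 0.95 for Itgb1 with Itga3 and -0.17 for Itgb1 with Itgb5. These 11 libraries share mouse, medium and batch but come from groups that differ in day or matrix. The correlations therefore include the differences between groups given above, and the values describe the libraries without a test. For the 5 subunits called in 3 or more comparisons, the genes with the highest correlation over the 23 libraries included Phldb2 (0.96) and Ahnak (0.96) for Itgb1, Proser1 (0.85) and Nfib (0.85) for Itga2, Actb (0.91) for Itga6, Plxnb2 (0.89) for Itgb4, and Clint1 (0.92) and Wwc1 (0.90) for Itgb6.

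Of 16 other integrin subunits, 14 were in the table and 3 passed the low-count filter, Itga1, Itga7 and Itgb3. The other 11 had at most 8 counts in any library, among them Itga10 and Itga11, which make collagen receptors in connective tissue. Itga1, another collagen receptor alpha subunit, was 22.1 ± 1.07 CPM (SD, n = 3) in Matrigel and 14.4 ± 4.48 CPM (SD, n = 5) in batch 1 collagen (0.60 ± 0.21, edgeR adjusted p = 0.071). In batch 2 it was 40.2 ± 7.88 CPM (SD, n = 3; 1.47 ± 0.20, edgeR adjusted p = 4.8e-06), and it was lower in 2D than at day 7 (-0.59 ± 0.22, edgeR adjusted p = 0.031). Itga7, a laminin receptor subunit of muscle with at most 25 counts a library, was lower at day 7 than at day 13 (-1.68 ± 0.40, edgeR adjusted p = 0.0011), in KPC than in KC (-1.23 ± 0.43, edgeR adjusted p = 0.054) and in 2D than at day 13 (-1.25 ± 0.34, edgeR adjusted p = 0.0042). Itgb3, the vitronectin receptor subunit, was higher at day 7 (0.59 ± 0.27, edgeR adjusted p = 0.076) and lower in 2D than at day 7 (-1.29 ± 0.30, edgeR adjusted p = 0.0012) and day 13 (-0.70 ± 0.29, edgeR adjusted p = 0.055).

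The counts in the gene lists that follow are read against the share of all tested genes called in either direction, 12.9% in Matrigel, 55.1% at day 7, 19.9% in KPC, 51.2% and 49.6% in 2D against day 7 and day 13, and 37.3% in batch 2. By direction, 28.1% of genes were higher and 27.1% lower at day 7. In 2D these shares were 26.4% and 24.8% against day 7, and 26.3% and 23.3% against day 13. Over all tested genes the median log2 fold change was between -0.05 and 0.02 in each comparison. None of these lists is called particular to a comparison.

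The adhesion core that joins integrins to actin had 28 of 29 listed genes tested. At day 7, 14 were higher and 3 lower than at day 13. The total was near the share of all genes, but the split leaned to higher, where all genes split about evenly. The list's median was 0.34 against 0.01 over all genes. Parvb, a parvin of the integrin-linked kinase complex, was 43.4 ± 6.44 CPM at day 7 and 11.03 ± 1.65 CPM at day 13 (1.97 ± 0.17, edgeR adjusted p = 1.2e-09). Flna, an actin crosslinker that binds beta tails, was 471 ± 128 against 163 ± 7.15 CPM (1.53 ± 0.14, edgeR adjusted p = 1.8e-09). Fermt1, the kindlin of epithelia, was the other way, 106 ± 19.5 against 334 ± 29.9 CPM (-1.65 ± 0.22, edgeR adjusted p = 1.0e-06). In Matrigel 5 were higher, among them the actinin gene Actn1 (0.88 ± 0.14, edgeR adjusted p = 1.6e-04), and 1 was lower, Lims2 (-0.94 ± 0.22, edgeR adjusted p = 0.0054). KPC had 4 higher, among them the focal adhesion protein gene Zyx (1.09 ± 0.16, edgeR adjusted p = 2.0e-05), and 2 lower. Batch 2 had 5 higher, with talin (Tln1) at 1.02 ± 0.15, and 4 lower than batch 1. In 2D cells 2 were higher and 13 lower than at day 7, and 9 higher and 7 lower than at day 13. Both totals were again near the share of all genes, with the split against day 7 leaning to lower. The medians outside day 7 were 0.13, 0.08, 0.09, -0.27 and 0.06 in the order given here.

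Hemidesmosome partners (6 of 7 tested) include the plakins and the laminin-332 chains that alpha6-beta4 joins. In Matrigel 3 were higher and 0 lower, the laminin chain genes Lama3 and Lamb3 among them. Lama3 was 14.1 ± 1.83 CPM in Matrigel and 1.68 ± 1.33 CPM in batch 1 collagen, where it had at most 7 counts (3.06 ± 0.36, edgeR adjusted p = 1.4e-06), while Lamb3 differed by 0.71 ± 0.26. Batch 2 held 11.7 ± 2.79 CPM of Lama3 (2.79 ± 0.40, edgeR adjusted p = 7.9e-06), with 5 partners higher than in batch 1 and 0 lower. At day 7, 3 were higher, with plectin (Plec) at 427 ± 204 against 190.4 ± 20.5 CPM (1.17 ± 0.18, edgeR adjusted p = 7.4e-06), and 1 lower, Lama3, at no more than 3 counts. In KPC, where Itgb4 was lower, Lama3 was the 1 called partner and was higher (1.13 ± 0.31, edgeR adjusted p = 0.013). In 2D cells 3 of the 6 were lower and 0 higher against either day. The total was near the share of all genes, but every called partner was lower. Lamb3 was at 13.4 ± 6.75 CPM in 2D against 64.04 ± 22.1 CPM at day 7 (-2.34 ± 0.30, edgeR adjusted p = 1.1e-06). The list's medians were 0.50 in Matrigel, 0.48 at day 7, -0.13 in KPC, -0.58 and -0.50 in 2D and 1.02 in batch 2.

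Receptors of collagen and laminin outside the integrin family (7 of 10 tested) had 4 higher and 0 lower in Matrigel, among them the hyaluronan receptor Cd44 (0.85 ± 0.11, edgeR adjusted p = 5.9e-06), the collagen receptor kinase Ddr1 (0.64 ± 0.16) and the laminin receptor Bcam (0.63 ± 0.14). At day 7, 1 was higher, Cd44 (0.52 ± 0.11), and 3 lower, Bcam among them (-0.90 ± 0.15). KPC had 2 higher, Ddr1 (0.67 ± 0.19) and Bcam (0.60 ± 0.18), and 1 lower, the dystroglycan gene Dag1 (-0.46 ± 0.17). Batch 2 had 2 higher and 2 lower than batch 1. In 2D cells Bcam was 169 ± 27.3 CPM against 42.04 ± 3.05 CPM at day 7 (2.01 ± 0.15, edgeR adjusted p = 3.6e-10). Itgb4 and Itga6 were lower in 2D than at day 7. Of the 7 receptors, 2 were higher and 1 lower in 2D than at day 7, and 4 higher and 1 lower than at day 13. The list's medians were 0.40 in Matrigel, -0.21 at day 7, -0.18 in KPC, 0.17 and 0.34 in 2D and -0.18 in batch 2.

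Of 18 ligand genes 13 were tested, and 3 were higher and 0 lower in Matrigel, including the laminin chains Lamb1 (0.98 ± 0.17) and Lama5 (0.82 ± 0.14, edgeR adjusted p = 3.4e-04). At day 7, 6 were higher and 2 lower, a total near the share of all genes but with a split leaning to higher. Lamb1 (1.22 ± 0.17) and nidogen (Nid1, 1.199 ± 0.20) were among those higher. Spp1, the osteopontin gene whose product binds alphav integrins, was lower (4675 ± 940.03 against 8833 ± 756 CPM, -0.92 ± 0.14). KPC had 1 higher and 2 lower, with Spp1 lower (-1.28 ± 0.16, edgeR adjusted p = 2.1e-06). The 2D cells had 2 higher and 6 lower than day 7, and 4 higher and 0 lower than day 13, with Spp1 at 14333 ± 1295 CPM (1.62 ± 0.14 and 0.70 ± 0.11). Batch 2 had 2 higher and 3 lower than batch 1. The list's medians were 0.13 in Matrigel, 0.22 at day 7, -0.12 in KPC, -0.04 and 0.07 in 2D and -0.22 in batch 2.

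Of 11 genes listed for the activation of latent TGF-beta, 8 were tested. In Matrigel 3 were higher, Ltbp2, Ltbp4 and Ltbp3, and 0 lower. Ltbp2 was 10.3 ± 0.609 against 1.14 ± 0.843 CPM, with at most 5 counts in a collagen library (3.101 ± 0.45, edgeR adjusted p = 2.9e-05). Ltbp4 differed by 1.18 ± 0.28 and Ltbp3 by 0.53 ± 0.15. At day 7, 2 were higher and 1 lower, in KPC 0 higher and 1 lower (Tgfb1, -0.74 ± 0.25), in 2D 2 higher and 1 lower against either day, and in batch 2 1 higher (Tgfb1, 0.92 ± 0.22) and 2 lower. The counts at day 7 and in 2D were below the share of all genes. The list's medians were 0.37 in Matrigel, 0.08 at day 7, 0.21 in KPC, 0.05 and 0.22 in 2D and -0.03 in batch 2.

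The ductal epithelial markers, all 7 tested, had 3 higher and 0 lower in Matrigel, 2 higher and 3 lower at day 7, 1 higher and 1 lower in KPC, 2 higher and 4 lower in 2D against day 7, 1 higher and 4 lower against day 13, and 3 higher and 1 lower in batch 2. Their medians were 0.22, -0.09, -0.21, -0.36, -0.66 and 0.24 in that order. The 2 fibroblast markers tested had 1 higher in 2D than at day 7 and 1 lower in batch 2, with no call in the other comparisons. Cela1 was lower at day 7 than at day 13 and higher in 2D than at day 7. The part of these markers in the integrin differences was not tested.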

How the data were processed

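Bulk 3′ RNA libraries with unique molecular identifiers (UMIs) were made by the authors from poly(A) RNA. They were sequenced on a NextSeq 500 and counted per gene against GRCm38 and GENCODE M25 with the Drop-seq pipeline. The deposited values are raw UMI counts of 27207 genes in 23 libraries, which were taken without change. No 2 libraries were identical, and 0 columns were left out. The 10 subunits, the gene lists and the comparisons were chosen with earlier results of these data known. Named genes were the 10 subunits, the other integrins past the filter and, in each list and comparison, up to 3 genes with the largest called change.

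Counts were analysed in R 4.3.3 with edgeR 4.0.16. Genes were kept by filterByExpr (11144), TMM factors were applied, and 1 quasi-likelihood fit of the 6 groups gave each contrast, with Benjamini-Hochberg adjustment over all tested genes and a threshold of adjusted p under 0.1, the rate used by the study. CPM uses TMM-scaled library sizes. Errors of log2 fold changes are standard errors and those of CPM are SD. Correlations used log2 CPM with a prior count of 2. Exon lengths and gene coordinates are from GENCODE M21 of the same build, and 11002 of the tested genes had a length. Limits from 3 counts cover counting error only. On counts simulated for Matrigel against collagen (10890 genes), 15 of 67 genes changed by 0.5, 60 of 67 changed by 1 and 66 of 66 changed by 2 on the log2 scale were called in the right direction, with 11 false calls. Alternatives were DESeq2 1.42.0, DESeq2 size factors, library size scaling, other count filters, a threshold of 0.05, the compared groups alone, a replicate block, removal of the length trend over 20 classes, both KC batches for day 13, and each library left out. After the data had been seen, fits without 2D replicates 1 to 3 (also with the length trend removed) or without replicates 4 to 6 were added. Some alleles and genes are not reported here.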

Additional observations from a re-analysis of the deposited data

Results flagged for a closer look

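Among the 20 sets of values tested, the 10 subunits in the 2 groups of more than 3 libraries, 1 library lay farther from its group than the limit of Dixon's test. Itga3 in KC collagen organoids of day 13, batch 1, replicate 5, was at 122 CPM, with the next library at 102 CPM and the lowest at 95.4 CPM. The gap was 0.736 of the group's range, against a limit of 0.71 for 5 libraries. Chance flags about 1 in 20 such sets. Without this library the Matrigel difference of Itga3 was 0.40 on the log2 scale and passed the test.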

How the results depend on the processing

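The 9 tested subunits gave 54 fold changes over the 6 comparisons. Of 564 values under alternatives other than leaving out 1 library, 492 kept direction and side of the threshold, 31 lost a call, 22 gained one and 19 turned sign, and of 450 values with 1 library left out 412 kept both. No called fold change turned sign. Subunits called in Matrigel numbered 2 rather than 4 at a threshold of 0.05, and 6 in the fit of the compared groups alone, where Itga3 and Itga6 were also called higher. At day 7 they numbered 3 rather than 6 with both KC batches. The day 7 call lost without a library was that of Itgb4, without day 7 replicate 3. In KPC they numbered 1 rather than 2 at 0.05, and 6 in the fit of the compared groups alone, where Itga2 and Itgb5 were called higher and Itga3 and Itga6 lower. In 2D against day 13 they numbered 2 rather than 4 with the length trend removed, 2 without 2D replicates 1 to 3, and 2 with both changes. With 1 library left out the counts ran from 2 to 5 in Matrigel, 5 to 7 at day 7, 1 to 2 in KPC, 5 to 8 and 3 to 5 in 2D against day 7 and day 13, and 6 to 6 in batch 2. The count fell to 2 in Matrigel without Matrigel replicate 1 and to 1 in KPC without KC replicate 1 or KPC replicate 2.

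The signs that turned belonged to values that passed no test in either fit. With both KC batches they were Itgb1 (-0.15) and Itgb4 (-0.0033) in Matrigel, Itgb5 (0.23) at day 7, Itgb1 (0.22), Itga6 (0.10) and Itgb5 (-0.40) in KPC, and Itgav (-0.020) in 2D against day 13. With 1 library left out they were Itga5 in Matrigel (-0.076, with a range up to 0.39) and KPC (-0.041, with a range up to 0.45), Itga3 in 2D against day 13 (0.0054, 0.0042 and 0.027) and Itgav there (-0.11, -0.05, -0.04 and -0.03). Without 2D replicates 1 to 3, Itgb1 (0.00068), Itga3 (0.11, and 0.15 with the length trend removed) and Itgav (-0.29 and -0.15) turned against day 13, and without replicates 4 to 6 Itgav (0.0020) against day 7. With the length trend removed Itga3 turned in 2D against day 13 (0.038) and Itgav in batch 2 (-0.11). With library size scaling Itgav (-0.19) and Itgb5 (-0.045) turned in 2D against day 13 and Itga3 (-0.071) in batch 2. Without the count filter Itgav was -0.016 in 2D against day 13. The causes were not tested. Library size scaling moved the median of all genes to 0.13 in KPC, -0.14 and -0.20 in 2D and -0.18 in batch 2, and the share of called genes that were higher from 51.3% to 68.6% in Matrigel, 48.0% to 67.9% in KPC, 51.6% to 37.5% and 53.1% to 31.9% in 2D and 51.6% to 35.2% in batch 2.

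The replicate numbers did not pair the libraries: deviations of same-numbered libraries correlated at -0.12 to 0.19, with 1 of 20 pairs above 0.1. With a replicate block the counts were 4, 6, 2, 7, 4 and 6 in the order above, but in Matrigel Itga3 and Itga6 were called and Itgav and Itgb5 were not. A change of 0.5 on the log2 scale was mostly missed in the counts simulated for Matrigel against collagen. Fewer genes were changed there than were called in any comparison of the data, so the rate missed in the data can differ. Itgb8 could not be tested.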
